A study of Rattus norvegicus with 6 samples.

Results

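The collagen VI chains are described here in cultured rat cardiac fibroblasts that received an antagomiR against miR-142-3p or a negative control oligonucleotide (NC). The 5 genes Col6a1, Col6a2, Col6a3, Col6a5 and Col6a6 were taken by symbol from the 30560 genes of the deposited expression table. They were selected on their FPKM (fragments per kilobase of transcript, scaled to the library total) in the 3 NC and 3 antagomiR libraries. Their levels are therefore given as a description and without a test. A further collagen VI gene, Col6a4, is also in the table and is given once.

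The cells were fibroblasts from the ventricles of newborn Sprague-Dawley rats aged 1 to 2 days, separated from other heart cells by preferential attachment. All cultures were kept overnight without serum and then received 50 nM of either oligonucleotide with a lipid transfection reagent, so both groups share the starvation, the reagent and the oligonucleotide dose. No untreated culture was analysed here. The labels did not say whether the libraries came from separate isolations, and p-values below therefore measure only the spread between these libraries, which may be technical.

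Collagen VI is a microfibril-forming collagen that surrounds cells at the border between basement membrane and interstitial matrix. The alpha 1 and alpha 2 chains, from Col6a1 and Col6a2, join inside the cell with a long chain, usually alpha 3 from Col6a3, and the trimers associate further before secretion into beaded filaments. The alpha 5 and alpha 6 chains, from Col6a5 and Col6a6, are alternatives to alpha 3 with a narrower expression. In the heart, fibroblasts are the main source of this collagen, which borders muscle cells and vessels, and inherited defects of its chains cause muscle disease.

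The microRNA targeted by the antagomiR is shown first, with its seed, bases 2 to 8 from the 5′ end, in capitals. The mature sequence is from RefSeq (GRCr8, chr10:73055155-73055177, plus strand) and is the strand that the antisense oligonucleotide is directed against. Libraries of polyadenylated RNA do not measure a mature microRNA, so its silencing was not checked here.
rno-miR-142-3p: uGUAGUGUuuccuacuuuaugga
The promoters of a main-chain gene from each of the 2 chromosomes that hold them are shown next, since Col6a1, Col6a2 and Col6a3 were all higher in the antagomiR libraries. Each runs from 250 bases before to 50 bases after the annotated start, from RefSeq in GRCr8, at chr20:11905440-11905739 on the plus strand for Col6a1 and chr9:98886909-98887208 on the minus strand for Col6a3. Capitals mark matches, on either strand, to the 6 motifs searched. These were GGGCGG for the GC box, CCAAT for the CCAAT box, TATAAA for the TATA box, TGANTCA for AP-1 factors, TTCNNNGAA for STAT factors and GGGNNNNNCC as a loose NF-kB type motif. No matches overlap in these windows.
Col6a1: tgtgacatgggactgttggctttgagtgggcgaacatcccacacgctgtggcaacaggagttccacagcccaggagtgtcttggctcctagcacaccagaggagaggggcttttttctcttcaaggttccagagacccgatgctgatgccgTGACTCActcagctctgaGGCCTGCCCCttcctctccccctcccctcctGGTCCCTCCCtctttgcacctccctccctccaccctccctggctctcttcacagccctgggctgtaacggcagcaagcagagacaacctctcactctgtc
Col6a3: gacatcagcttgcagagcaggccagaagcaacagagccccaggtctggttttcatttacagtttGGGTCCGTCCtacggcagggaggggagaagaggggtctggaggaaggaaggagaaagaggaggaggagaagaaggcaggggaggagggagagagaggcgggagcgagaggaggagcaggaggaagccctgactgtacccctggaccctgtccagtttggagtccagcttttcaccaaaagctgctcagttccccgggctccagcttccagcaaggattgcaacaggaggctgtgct
The Col6a1 window held 1 match to TGANTCA, which begins 99 bases before the start and occurs in 7.33% of the 33469 promoters in the table. It also held 2 matches to GGGNNNNNCC, at 81 and 50 bases before the start. The Col6a3 window held 1 match to GGGNNNNNCC, 186 bases before the start, and no match to the other 5. That motif occurs in 47.3% of all promoters, so its presence in both windows is common. Neither window held a GC box, a CCAAT box or a TATA box, which occur in 33.1%, 37.5% and 14.2% of promoters, and neither held the STAT type motif, which occurs in 8.87%. These matches describe letters in a window and not factor binding. The G and C content was 59.7% for Col6a1 and 58.7% for Col6a3, against a median of 51.7%. A promoter entry was matched for 4 of the 5 chains, and Col6a2 had no matched entry.

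Library totals recovered from the FPKM values ran from 19472409 to 24622667 fragments, and limma was run on log2(FPKM + 1) for the 12024 genes that averaged 1 FPKM or more. With the adjusted p held under 0.05, 2109 genes (17.5%) rose and 1107 (9.21%) fell, and these shares are the background for the counts below. All 10 fibroblast markers were measured, with a summed level of 7160 to 7661 FPKM in NC and 7239 to 7422 FPKM in antagomiR libraries, so the summed ranges overlapped. Col1a1 and Vim carry most of that sum, and of the single fibroblast markers 5 rose and 2 fell. Pdgfra, a growth factor receptor of fibroblasts, rose from a mean of 8.53 to 27.5 FPKM (limma adjusted p = 8.28e-05), and Thy1, a surface glycoprotein, fell from 47.7 to 34.0 FPKM (adjusted p = 0.0150). That list shares Dcn, Ddr2 and Col1a1 with the genes below. The 17 leukocyte and macrophage markers summed to 143, 211 and 730 FPKM in NC replicates 1, 2 and 3 and to 941 to 1050 FPKM in antagomiR libraries, with Cd3e at 0 in all libraries. Lyz2 carried the largest part of that sum, at means of 186 FPKM in NC and 523 FPKM in antagomiR libraries. It was not called (limma adjusted p = 0.0511). NC replicate 3 had the highest NC level for all 14 of the tested leukocyte markers, and 6 of them rose with the antagomiR. Mrc1, C1qa, C1qb and C1qc were not called, and their group ranges overlapped. Summed cardiomyocyte markers were 389 to 431 FPKM in NC and 296 to 356 FPKM in antagomiR libraries. Tnnt2 carried most of that sum and fell from a mean of 339 to 254 FPKM (limma adjusted p = 0.0127). Myh7 rose from 5.47 to 7.47 FPKM (adjusted p = 0.0168), and no other of the 6 tested cardiomyocyte markers was called. The endothelial marker sum lay below 4 FPKM in all libraries, with Emcn at 0. Pericyte and smooth muscle markers summed to 54.6 to 58.0 FPKM in NC and 37.1 to 38.2 FPKM in antagomiR libraries, Schwann cell markers to 32.6 to 39.6 and 47.5 to 49.7 FPKM, and epicardial markers to 14.6 to 16.3 and 9.76 to 12.4 FPKM. The 3 main collagen VI chains were also highest in replicate 3 among the NC libraries, as were 7 of the 10 fibroblast markers. The part of these markers in the collagen VI values was not tested, and in bulk RNA fewer cells of a type and less RNA per cell cannot be told apart.

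Col6a1, which encodes the alpha 1 chain, lies on chromosome 20 from 11905957 to 11924597 (mRatBN7.2, ENSRNOG00000001249). Its level was 205, 221 and 241 FPKM in NC replicates 1, 2 and 3 and 400, 416 and 409 FPKM in antagomiR replicates 1, 2 and 3. Every antagomiR library was above every NC library, and the spread was narrower with the antagomiR than in NC. The mean was 222 ± 18.1 FPKM in NC and 408 ± 7.80 FPKM in antagomiR libraries (SD, n = 3), a ratio of 1.84. Over the 9 pairs of an antagomiR with an NC library the ratio ran from 1.66 to 2.03. On the log2(FPKM + 1) scale the difference was 0.88 with a standard error of 0.07. Without NC replicate 3 the NC mean was 213 FPKM and the ratio 1.92, so the difference was larger without that library.

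Col6a2, which encodes the alpha 2 chain, lies on the same chromosome from 12021767 to 12057564 (ENSRNOG00000001254). Its level was 264, 301 and 332 FPKM in NC replicates 1, 2 and 3 and 474, 476 and 483 FPKM in antagomiR replicates 1, 2 and 3. The groups did not overlap, and the NC libraries lay in the same order as for Col6a1, with replicate 1 lowest and replicate 3 highest. The mean was 299 ± 33.8 FPKM in NC and 477 ± 4.69 FPKM in antagomiR libraries (SD, n = 3), a ratio of 1.60. The difference was 0.68 on the log2(FPKM + 1) scale, with a standard error of 0.10. Without NC replicate 3 the ratio was 1.69. Among the 5 chains Col6a2 had the highest FPKM in each of the 6 libraries.

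Col6a3, which encodes the long alpha 3 chain that gives the collagen VI trimer most of its globular domains, lies on chromosome 9 from 91361583 to 91439471 (ENSRNOG00000019648). Its level was 13.9, 14.3 and 14.9 FPKM in NC replicates 1, 2 and 3 and 17.6, 17.9 and 17.0 FPKM in antagomiR replicates 1, 2 and 3. The groups did not overlap, but the lowest antagomiR library was only 1.14 times the highest NC library. The mean was 14.4 ± 0.534 FPKM in NC and 17.5 ± 0.454 FPKM in antagomiR libraries (SD, n = 3), a ratio of 1.22, and 1.24 without NC replicate 3. The difference on the log2(FPKM + 1) scale was 0.27 with a standard error of 0.04, against a median of 0.06 over all genes tested. With median-ratio scaling it was 0.20, and with quantile normalization 0.18, where the median of all genes moved by -0.11. Col6a3 was thus higher with the antagomiR under each scaling tried, as were Col6a1 (0.81 and 0.87 in the same order) and Col6a2 (0.61 and 0.74).

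Col6a6 encodes the alpha 6 chain and lies on chromosome 8 from 106306422 to 106473472 (ENSRNOG00000023007). It was near the limit of what these libraries resolve, with 0.175, 0.235 and 0.168 FPKM in NC replicates 1, 2 and 3 from 37, 62 and 36 fragments. The antagomiR replicates 1, 2 and 3 had 0.290, 0.404 and 0.347 FPKM from 70, 108 and 86 fragments. The groups did not overlap, although NC replicate 2 and antagomiR replicate 1 differed by only 1.23 times. The mean was 0.193 ± 0.0370 FPKM in NC and 0.347 ± 0.0569 FPKM in antagomiR libraries (SD, n = 3), a ratio of 1.80, and 1.69 without NC replicate 3. Its mean was below the filter of 1 FPKM, so it was not among the tested genes. The log2 difference was 0.17 with 1 FPKM added and 0.82 with 0.01 FPKM added, and the added value therefore sets its size. Col6a6 overlaps Pik3r4, which encodes a regulatory subunit of a vesicle-trafficking lipid kinase, over 10163 bp. Pik3r4 had 8.81, 8.89 and 8.12 FPKM in NC replicates 1, 2 and 3 and 10.7, 11.0 and 10.9 FPKM in antagomiR replicates 1, 2 and 3. It rose by 0.30 (limma adjusted p = 0.0101), a call lost without antagomiR replicate 3 (adjusted p = 0.0506) and with quantile normalization, where the difference was 0.18 (adjusted p = 0.0690). The strand setting of the counting was not given in the sources used here, so reads of the overlap cannot be assigned to either gene.

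Col6a5, which encodes the alpha 5 chain, lies beside Col6a6 on chromosome 8 from 106483799 to 106584113 (ENSRNOG00000010663), with a gap of 10326 bp between them. It had 1, 7 and 1 fragments in NC replicates 1, 2 and 3 and 3, 0 and 2 fragments in antagomiR replicates 1, 2 and 3. The level was 0.0347 FPKM in NC replicate 2 and at most 0.0162 FPKM in the others, near the 0.0147 to 0.0186 FPKM that 3 fragments correspond to. The groups overlapped, no ratio is given, and a difference was not detectable at this depth. Col6a4, the next gene on that chromosome, had 0, 1 and 1 fragments in NC and 0 in each antagomiR library.

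**Figure D1:**
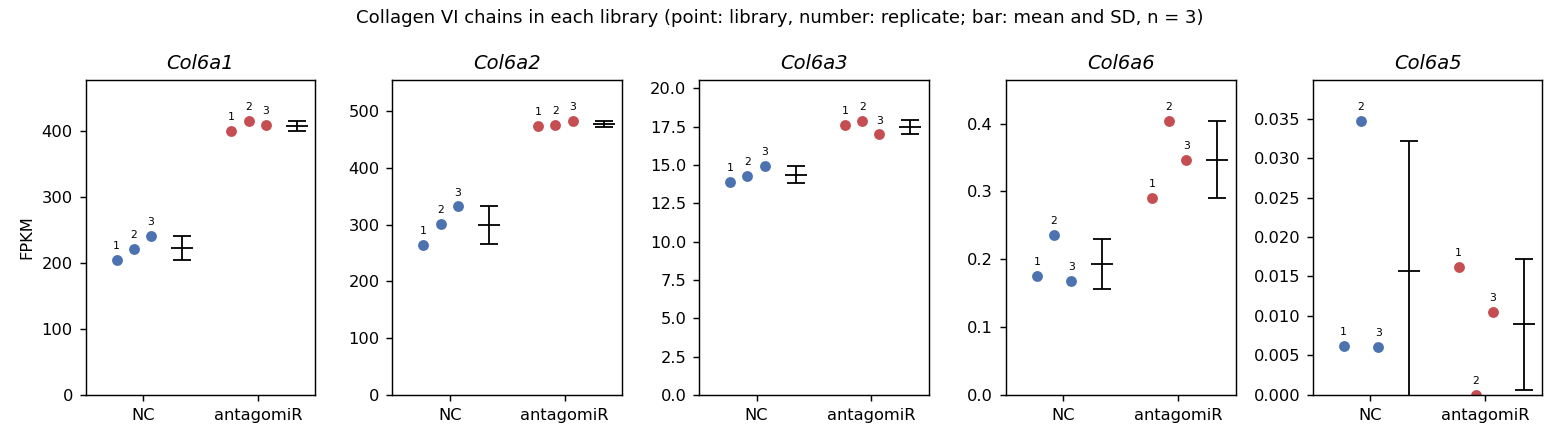
FPKM of the 5 collagen VI chains in each NC (blue) and antagomiR (red) library, with the replicate number above each point and the mean and SD (n = 3) beside them, each panel on its own linear axis from 0. The antagomiR libraries lie above NC libraries for Col6a1, Col6a2, Col6a3 and Col6a6, and the groups overlap for Col6a5, which had at most 7 fragments in a library.

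Each antagomiR value was thus above each NC value for 4 of the 5 chains, including the 3 that passed the filter. The same held for 29.2% of all tested genes, and since the chains were chosen by these values nothing is read from their count. By mean level in NC the order was Col6a2, Col6a1, Col6a3, Col6a6 and Col6a5, and it was the same with the antagomiR. In NC the ranges of Col6a2 and Col6a1 did not overlap, at 264 to 332 and 205 to 241 FPKM. Col6a1 was at least 14.8 times Col6a3 in every library. By ratio of means the order was Col6a1, Col6a6, Col6a2 and Col6a3, with Col6a6 resting on 135 fragments in NC and 264 with the antagomiR.

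The replicate spread of the 2 main chains was much wider in NC than with the antagomiR. The coefficient of variation (SD over mean) of Col6a1 was 8.12% in NC and 1.91% with the antagomiR, and that of Col6a2 was 11.3% and 0.982%. Counting error alone would give about 0.716% for Col6a1 and 0.667% for Col6a2 in a single NC library, so the NC spread was wider than counting error. NC replicate 3 was 1.18 times NC replicate 1 for Col6a1 and 1.26 times for Col6a2. For Col6a3 the same ratio was 1.08, and its coefficients of variation were 3.72% and 2.60%.

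The chains did not keep their proportions between the groups. The FPKM of Col6a2 over that of Col6a1, 2 chains that enter the trimer in equal number, was 1.29, 1.36 and 1.38 in NC replicates 1, 2 and 3 and 1.18, 1.14 and 1.18 in antagomiR replicates 1, 2 and 3. The antagomiR libraries were all lower, at 1.17 ± 0.0220 against 1.34 ± 0.0460 (SD, n = 3). Col6a1 over Col6a3 was 14.8, 15.5 and 16.1 in NC and 22.8, 23.3 and 24.1 with the antagomiR, without overlap. Col6a2 over Col6a3 was 20.8 ± 1.61 in NC and 27.3 ± 0.963 with the antagomiR (SD, n = 3). As a share of the 3 chains, Col6a3 made up 2.69 ± 0.168% of the FPKM in NC and 1.94 ± 0.0579% with the antagomiR, Col6a1 41.6 ± 0.753% and 45.2 ± 0.452%, and Col6a2 55.7 ± 0.918% and 52.9 ± 0.474%. These are ratios of transcript levels per length and not of protein chains.

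All 5 chains together summed to 483, 537 and 588 FPKM in NC replicates 1, 2 and 3 and to 892, 910 and 909 FPKM in antagomiR replicates 1, 2 and 3. The summed FPKM of all 42 collagen genes in the table was 14634 ± 309 in NC and 13350 ± 215 with the antagomiR (SD, n = 3), so the total of the family was lower while that of collagen VI was higher. Collagen VI made up 3.27%, 3.61% and 4.12% of the collagen FPKM in NC replicates 1, 2 and 3 and 6.78%, 6.70% and 6.83% in antagomiR replicates 1, 2 and 3. All antagomiR libraries were above all NC libraries. Ranked by mean FPKM among the collagen genes, Col6a2 was the tenth in NC and the sixth with the antagomiR, and Col6a1 went from the eleventh to the seventh place. The sum of the 5 chains over the summed fibroblast markers was 7.26 ± 0.469% in NC and 12.3 ± 0.111% with the antagomiR (SD, n = 3), and over Col1a1, the main fibrillar collagen chain, it was 0.116 ± 0.00939 and 0.217 ± 0.00757.

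**Figure D2:**
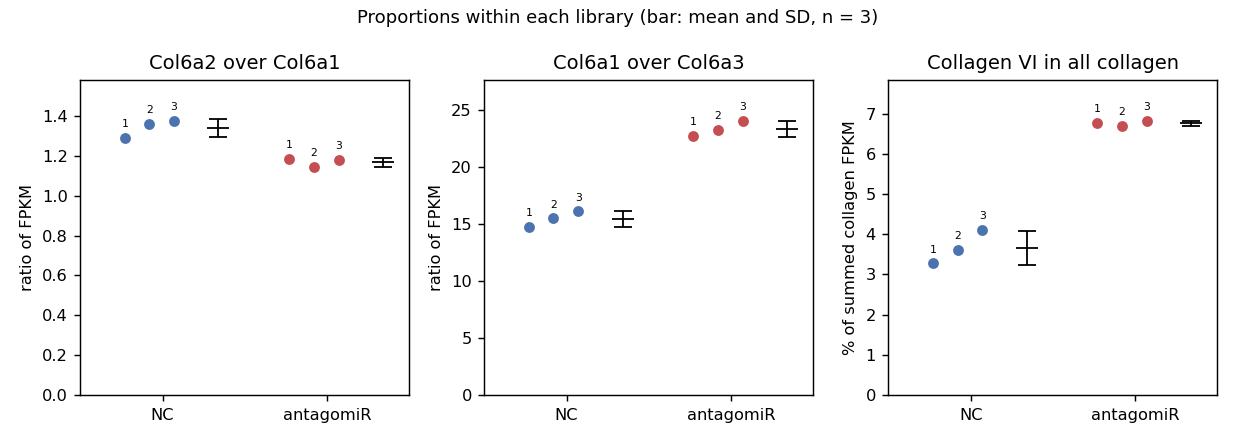
Ratio of Col6a2 to Col6a1, ratio of Col6a1 to Col6a3, and collagen VI as a percentage of the summed FPKM of 42 collagen genes, in each NC (blue) and antagomiR (red) library, with the mean and SD (n = 3) beside the points. The first ratio is lower and the other 2 measures are higher in all antagomiR libraries.

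The other collagens served as the comparison for the chains, and most that changed went the other way. Of 36 collagen genes outside collagen VI, 22 were tested, 2 rose (9.09%, against 17.5% of all tested genes) and 10 fell (45.5%, against 9.21%). The difference between collagen VI and these genes was not tested, since the chains were chosen by their difference. Among the fibrillar chains 0 of 10 rose and 5 fell, and their median log2 fold change was -0.24. Col5a3 fell by 0.38 (limma adjusted p = 0.00270), Col1a2 by 0.31 (adjusted p = 0.0267), Col27a1 by 0.34 (adjusted p = 0.0321) and Col11a1 by 0.49 (adjusted p = 0.0351). The count of falling fibrillar chains changed with the libraries used. It was 8 without NC replicate 3, 2 without NC replicate 1 and 1 when NC replicate 2 or any antagomiR replicate was left out. The calls of Col1a2, Col27a1 and Col11a1 were lost in 6, 7 and 7 of the alternatives. Of 12 tested non-fibrillar collagens 5 fell, among them Col12a1 by 0.67 (adjusted p = 0.000438), Col8a2 by 0.97 (adjusted p = 0.00101), Col14a1 by 0.86 (adjusted p = 0.00121) and Col9a2 by 0.94 (adjusted p = 0.0109).

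The 2 other collagens that rose were Col18a1 and Col15a1, the related basement membrane collagens that carry endostatin-type domains. Col18a1 had 21.3, 22.9 and 25.7 FPKM in NC replicates 1, 2 and 3 and 43.0, 41.5 and 44.5 FPKM in antagomiR replicates 1, 2 and 3. Its groups did not overlap, and its NC libraries were ordered as those of Col6a1 and Col6a2. Col18a1 rose by 0.86 (standard error 0.07, limma adjusted p = 0.000342), beside the 0.88 of Col6a1. Col15a1 rose by 0.47 (adjusted p = 0.0135), and was not called without antagomiR replicate 2 or antagomiR replicate 3 (highest adjusted p = 0.0567), which left 1 gene rising.

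**Figure D3:**
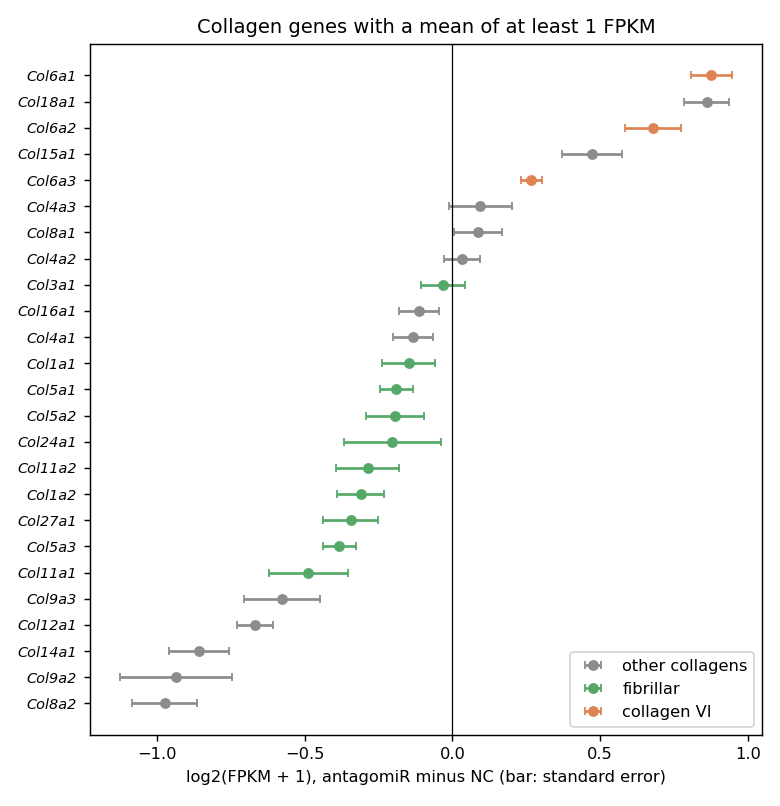
Difference in log2(FPKM + 1), antagomiR minus NC, with its standard error, for the 25 tested collagen genes, ordered by size. Col6a1, Col6a2 and Col6a3 (orange) lie at 0.88, 0.68 and 0.27, among the positive values with Col18a1 and Col15a1, and the fibrillar chains (green) lie below 0.

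Genes whose products receive, bind, build and degrade collagen VI or collagens in general were examined next. The receptors, listed for collagen VI and other collagens, come first. Of 12 receptor genes 9 were tested, 1 rose (against the 17.5% of all genes) and 2 fell (against 9.21%), and the median log2 fold change was 0.01. Cspg4, the proteoglycan NG2 that binds collagen VI at the surface of pericytes and other cells, had 7.87, 7.69 and 8.20 FPKM in NC and 4.93, 5.59 and 5.23 FPKM in antagomiR libraries. It fell by 0.51 (limma adjusted p = 0.00200), and it is also one of the pericyte and smooth muscle markers, which summed to 37.1 to 38.2 FPKM with the antagomiR. Itgb1, the beta chain shared by the collagen-binding integrins, had 1111, 1045 and 918 FPKM in NC and 670, 692 and 688 FPKM in antagomiR libraries, and fell by 0.58 (adjusted p = 0.00278). Ddr2, a collagen-activated kinase of fibroblasts, rose from 65.6 ± 6.83 to 85.7 ± 1.45 FPKM (SD, n = 3), a log2 fold change of 0.39 (adjusted p = 0.0106).

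The anthrax toxin receptors Antxr1 and Antxr2, which bind collagen VI fragments and take up collagen, gave log2 fold changes of -0.12 (limma adjusted p = 0.222) and 0.01 (adjusted p = 0.901). The integrin alpha chains Itga1, Itga3 and Itga11 gave 0.15 (adjusted p = 0.238), 0.04 (adjusted p = 0.750) and 0.06 (adjusted p = 0.499), and the kinase Ddr1 gave -0.14 (adjusted p = 0.0679). Itga2, Itga10 and Lair1 were below the filter. Without NC replicate 3 the count of receptors that fell was 4, with Antxr1 and Ddr1 added, and Ddr1 was also called as falling after median-ratio scaling and quantile normalization.

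Of 16 matrix genes whose products bind collagen VI microfibrils 14 were in the table and 11 were tested. Of these 3 rose and 2 fell, against 17.5% and 9.21% of all tested genes. The median log2 fold change of the 11 was 0.03. Those that rose were small leucine-rich proteoglycans, which attach to collagen. Dcn, decorin, had 12.4, 13.6 and 10.9 FPKM in NC replicates 1, 2 and 3 and 38.4, 29.9 and 32.0 FPKM in antagomiR replicates 1, 2 and 3, a rise of 1.37 (limma adjusted p = 0.000262). Fmod, fibromodulin, rose from 11.8 ± 0.589 to 24.9 ± 0.161 FPKM (SD, n = 3), a rise of 1.02 (adjusted p = 5.72e-05). Lum, lumican, rose by 0.80 from a low level of 1.13 ± 0.129 FPKM (SD, n = 3; adjusted p = 0.00269). Bgn, biglycan, the proteoglycan of this kind with the highest level, was at 2767 ± 96.5 FPKM in NC and 2729 ± 66.1 FPKM in antagomiR libraries, a log2 fold change of -0.02 (adjusted p = 0.881).

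The adaptor Matn4, one of the matrilins that link collagen VI to other fibrils, had 29.3, 25.9 and 27.5 FPKM in NC and 11.5, 11.0 and 9.94 FPKM in antagomiR libraries. It fell by 1.28 (limma adjusted p = 6.88e-05). Col14a1, a fibril-associated collagen, fell from 457 ± 59.0 to 251 ± 13.7 FPKM (SD, n = 3; adjusted p = 0.00121). Leaving out NC replicate 3 gave 3 falling matrix partners.

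Enzymes and receptors of collagen VI cleavage and collagen uptake numbered 9, all tested. Of these 5 rose and 1 fell, against 17.5% and 9.21% of all tested genes. The median log2 fold change of the 9 was 0.31. Mmp2, a gelatinase, had 574, 597 and 620 FPKM in NC replicates 1, 2 and 3 and 813, 800 and 815 FPKM in antagomiR replicates 1, 2 and 3, and rose by 0.44 (limma adjusted p = 0.00219). Mrc2, an endocytic receptor for collagen, rose from 29.2 ± 2.98 to 49.8 ± 1.69 FPKM (SD, n = 3), a log2 fold change of 0.76 (adjusted p = 0.000678). Mmp9, a gelatinase also made by leukocytes, had 0.396, 0.567 and 2.42 FPKM in NC and 6.83, 6.88 and 7.42 FPKM in antagomiR libraries, a rise of 2.04 (adjusted p = 0.00364), with NC replicate 3 above the other NC libraries as for the leukocyte markers. Mmp11, which cleaves collagen VI, rose by 0.42 (adjusted p = 0.00899). Mmp16, a membrane-bound protease, fell by 0.47 (adjusted p = 0.00340). Bmp1 and Mmp14 gave 0.01 (adjusted p = 0.845) and 0.02 (adjusted p = 0.844).

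Genes for folding, modification and secretion of collagen mostly fell where they changed. Of 23 tested members 1 rose and 11 fell, against 17.5% and 9.21% of all tested genes. The median log2 fold change of the 23 was -0.16. P4ha2, a catalytic subunit of the proline hydroxylase that stabilises the triple helix, had 81.3, 81.7 and 76.1 FPKM in NC replicates 1, 2 and 3 and 150, 153 and 158 FPKM in antagomiR replicates 1, 2 and 3. It rose by 0.94 (limma adjusted p = 6.46e-05). The prolyl 3-hydroxylase family members P3h2, P3h1 and P3h4 fell by 0.75 (adjusted p = 0.00129), 0.36 (adjusted p = 0.00326) and 0.50 (adjusted p = 0.00380), and Sec23a, a coat protein of secretory vesicles, fell by 0.33 (adjusted p = 0.00401). Without NC replicate 3 the counts were 2 rising and 14 falling, and 6, 7 and 5 genes fell without antagomiR replicates 1, 2 and 3.

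**Figure D4:**
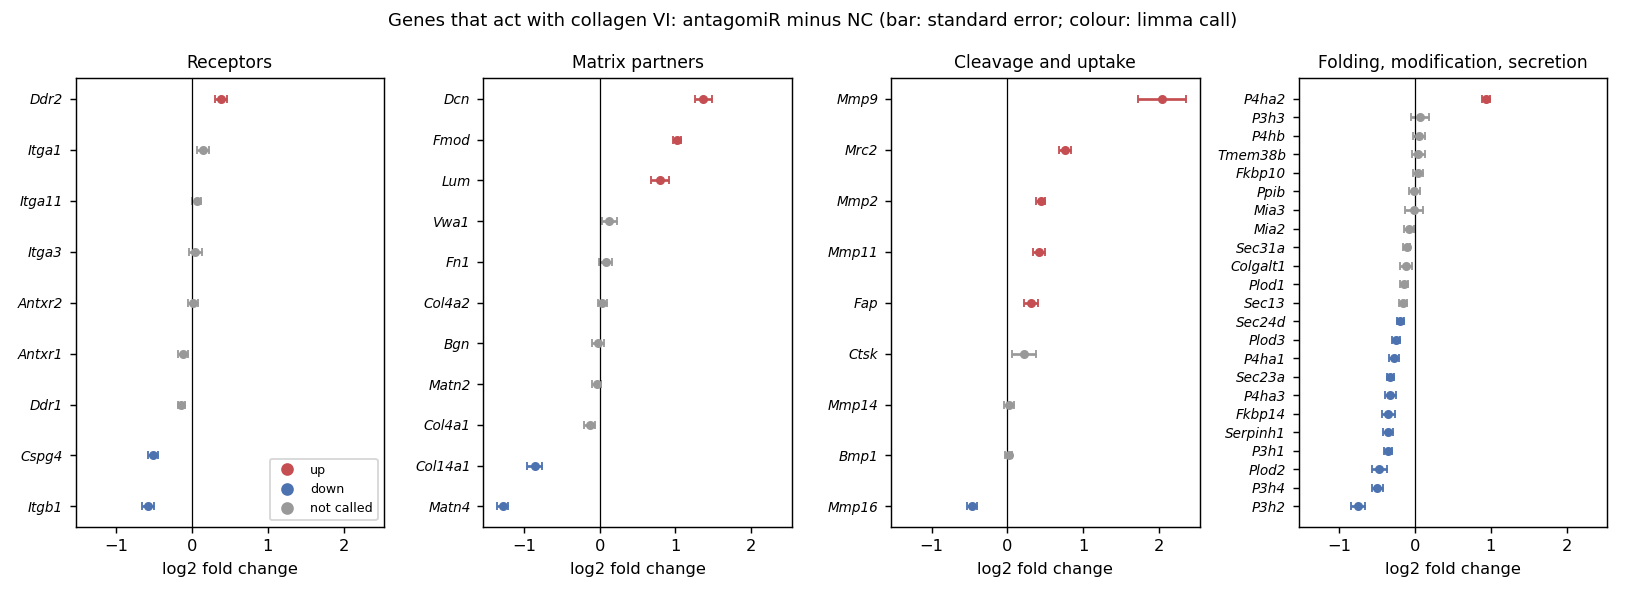
Log2 fold change (antagomiR minus NC on log2(FPKM + 1)) with its standard error for tested receptor, matrix partner, cleavage and uptake, and folding and secretion genes, coloured by limma call. In the receptor panel 1 gene rose and 2 fell, and in the matrix partner panel 3 rose and 2 fell. In the cleavage and uptake panel 5 rose and 1 fell, and in the folding and secretion panel 1 rose and 11 fell. Of all tested genes 17.5% rose and 9.21% fell.

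Likeness to each main chain was measured as the root mean square difference between log2(FPKM + 1) profiles over the 6 libraries, each centred on its own mean. The 4 genes nearest to Col6a1 were Znfx1, an RNA helicase of antiviral defence (0.0397), Col18a1 (0.0413), Myoz3, a protein of the muscle Z-disc (0.0414), and the unnamed gene ENSRNOG00000063679 (0.0432). Among those nearest to Col6a2 were Ephx1, an epoxide hydrolase (0.0244), Pik3cb, a lipid kinase subunit (0.0359), and Ncaph, a condensin subunit (0.0389). Nearest to Col6a3 were Hps6, of an organelle-biogenesis complex (0.0222), Plscr3, a phospholipid scramblase (0.0229), Dennd4b, an exchange factor (0.0231), and Stk4, a kinase of the Hippo pathway (0.0233). None of the 3 chains was among the 4 nearest genes of another. Col6a2 held place 107 for Col6a1, at 0.104, and Col6a3 held place 1612, at 0.308. These distances describe 6 libraries and both groups, and do not measure shared function. The added 1 FPKM also shrinks the change of low genes, so a near gene need not have the same ratio of means. That ratio was 1.84 for Ncaph, 1.76 for Pik3cb and 1.63 for Ephx1, against 1.60 for Col6a2. For Znfx1 it was 1.99 and for Col18a1 1.85, against 1.84 for Col6a1.

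Col6a1 and Col6a2 lie 97169 bp apart on chromosome 20, and the genes around them were examined because Col18a1 lies on the same chromosome. The window of 500 kb on each side was chosen after these values were seen. It held 18 other genes, of which 10 were tested. Among those tested 1 rose and 1 fell, against 17.5% and 9.21% of all tested genes, so nothing is read from these counts. The gene that rose was Col18a1, which had prompted the window. Col18a1 ends 323.4 kb before Col6a1 begins, and none of the 3 genes between them was called, including Pcbp3, an RNA-binding protein gene whose end lies 27746 bp from Col6a1 (log2 fold change -0.04, limma adjusted p = 0.769). Beyond Col6a2, Lss, which encodes lanosterol synthase of the cholesterol pathway, fell by 0.75 (adjusted p = 0.00129). Ftcd overlaps Col6a2 over 2357 bp and was at most 0.0956 FPKM in any library. Col6a3 lies apart from the others on chromosome 9, and the level of its neighbour Cops8, a signalosome subunit, was 30.5 ± 1.53 FPKM in NC and 30.5 ± 1.05 FPKM in antagomiR libraries (SD, n = 3; log2 fold change -0.00043, adjusted p = 0.997).

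**Figure D5:**
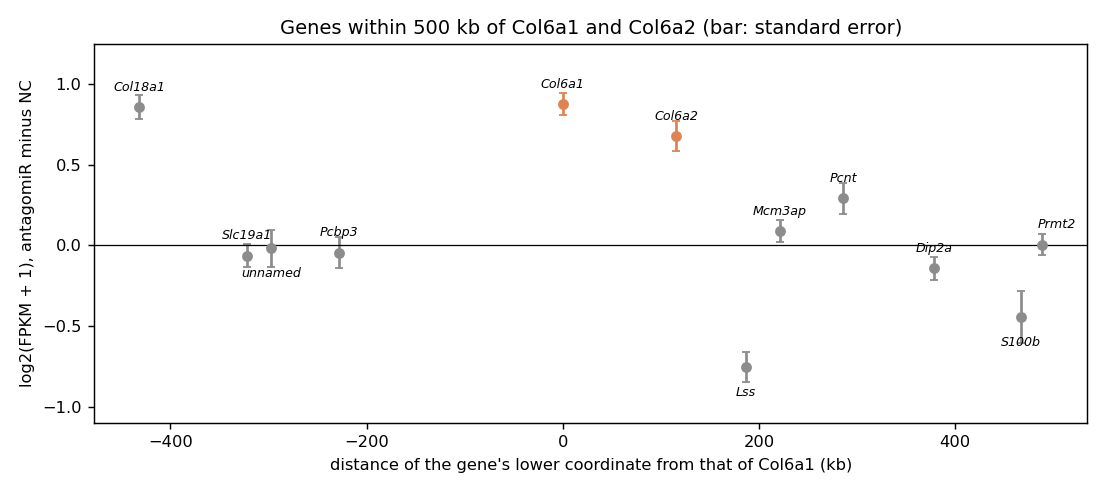
Difference in log2(FPKM + 1), antagomiR minus NC, with its standard error, for the 12 tested genes within 500 kb of Col6a1 and Col6a2, against distance from Col6a1 in kb. Col6a1 and Col6a2 (orange) lie at 0.88 and 0.68 and Col18a1 at 0.86, with 3 genes near 0 between Col18a1 and Col6a1.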

How the data were processed

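Polyadenylated RNA of 3 NC and 3 antagomiR libraries was sequenced as paired-end reads, per the labels' protocols. The table the authors deposited holds FPKM for 30560 genes, with symbols and mRatBN7.2 coordinates. Tools listed in the submitters' processing notes are edgeR, HTSeq, HISAT2, cutadapt and FastQC. Their settings and the annotation are not given in the sources used here. Overlapping genes therefore cannot be told apart.

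Columns were assigned by the names in the labels, and 0 were left unassigned. Library totals and fragment counts were recovered from the FPKM, which were whole multiples within 0.01 for 100% of the 20134 genes above 0. Ratios and intervals from these fragments cover counting error only. Replicates differed by more than sampling noise (chi-square per degree of freedom 3.53 to 31.6), so none was treated as a repeat.

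Differences between the groups were tested in R 4.3.3 by limma 3.58.1 with a trended prior variance, two-sided, on log2(FPKM + 1). Genes averaging under 1 FPKM over the 6 libraries were left out, with Benjamini-Hochberg adjustment over all 12024 and a threshold of 0.05. The steps were checked on simulated data. Log2 fold changes subtract NC from antagomiR values, and this scale understates low genes. Ratios of chains and of group means use FPKM. Alternatives were pseudocounts of 0.1 and 0.01, no filter, a filter at 5 FPKM, median-ratio scaling, quantile normalization, limma voom on recovered fragments, a replicate block and leaving out each library.

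The chains and gene lists were chosen with earlier results of these data known. Named genes are the chains and Col6a4, all receptors, up to 4 called genes with the smallest p per direction in each list, the 4 genes most like each main chain, and genes next to a chain. Of these, 1 gene is not reported here. Bgn, Bmp1, Mmp14, Lss, Pdgfra and Thy1 were named after their values were seen. Tnxb, Hspg2, Crtap, Col4a4, Col4a5 and Col21a1 were not analysed here, so the collagen total and the collagen VI share leave out those collagen chains. Promoter and microRNA sequences are from RefSeq tables in GRCr8, and motifs were searched on both strands.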

Additional observations from a re-analysis of the deposited data

How the results depend on the processing

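Col6a1, Col6a2 and Col6a3 were higher with the antagomiR under all alternatives run. Col6a6, below the filter, was recomputed only with other pseudocounts, no filter and single libraries left out, and was higher in each. The log2 difference of Col6a3 was 0.20 with median-ratio scaling and 0.18 with quantile normalization, and that of Col6a6 was 0.61 and 0.82 with pseudocounts of 0.1 and 0.01. Leaving out single libraries gave 0.82 to 0.94 for Col6a1, 0.59 to 0.76 for Col6a2, 0.24 to 0.29 for Col6a3 and 0.14 to 0.21 for Col6a6.

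The called genes split into 2109 rising and 1107 falling, against 1576 and 1484 with median-ratio scaling and 1413 and 1869 with quantile normalization. Leaving out single libraries gave 1216 to 3185 rising and 667 to 1677 falling genes, with both highest values without NC replicate 3. Over the same omissions 2 to 4 receptors, 5 to 14 folding and secretion genes, 1 to 8 fibrillar chains and 4 to 6 other collagens fell, and 1 to 2 folding and secretion genes, 4 to 6 cleavage and uptake genes and 1 to 2 other collagens rose. Without a filter 2 receptors rose and 2 fibrillar chains fell. With a filter at 5 FPKM, which leaves fewer genes to test, 2 cleavage and uptake genes rose, 0 fell and 3 other collagens fell. The cause of the other shifts was not tested.

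Of the 48 named genes over these alternatives, 51 calls were lost and 4 gained. In 604 cases a gene kept its direction and its side of the threshold, called or not, and 0 reversed. Hps6, Plscr3 and Dennd4b lost theirs in 8, 8 and 9 settings. Equal replicate numbers did not mark libraries that deviate together (r = -0.16, -0.06 and -0.04). A fit with the replicate block called 1571 rising and 809 falling genes and 2 falling fibrillar chains. Depth limits Col6a5 and Col6a6, with at most 7 and 108 fragments in a library.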
